A study of Mus musculus with 2 samples.

Results

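Transcript levels of 10 Notch pathway genes were set side by side in 4T1 cells cultured alone and in 4T1 cells cultured with M2 macrophages. The genes were the 4 receptors (Notch1, Notch2, Notch3 and Notch4), 3 ligands (Jag1, Jag2 and Dll1) and 3 targets (Hes1, Hey1 and Nrarp), taken by symbol, and all 10 were found among the 51912 rows with Ensembl gene identifiers. 4T1 is a mouse mammary carcinoma cell line, and M2 macrophages are the alternatively activated form of these phagocytes. The control group was 1 library of 4T1 cells, and the co-culture group was 1 library of 4T1 cells kept for 3 days in the lower chamber of a transwell with macrophages in the upper chamber. No genetic change is labelled in either group, and the labels do not say where the macrophages came from or how the control wells were set up. The title of the co-culture library calls the cells 4T2, whereas the treatment label and the table's column name say 4T1. Each group had 1 library, so there is no replicate error, no test between the groups can be made, and every difference below is one between these 2 libraries.

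Notch receptors are single-pass membrane proteins that are bound by ligands of the Delta and Jagged families on a neighbouring cell. Binding exposes the receptor to cleavage by an ADAM protease and then by gamma-secretase, and the released intracellular part joins the DNA-binding protein RBPJ and a Mastermind coactivator at target genes such as Hes1 and Nrarp. The canonical ligands are membrane-bound, and a transwell keeps the 2 cell populations apart while soluble molecules pass. In the mammary gland the pathway is known for its part in luminal cell fate, and activated Notch receptors cause mammary tumours in mice.

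Levels are given in TPM, in which each gene's reads are divided by transcript length and every library is scaled to the same total, so that levels can be compared between genes. Differences are given as log2((co-culture TPM + 1)/(control TPM + 1)), called the log2 ratio, which understates the difference of genes with low values. A gene was counted as detected at a mean of at least 1 TPM over both libraries and as 2-fold different at a log2 ratio of 1 or -1. Across the 11258 detected genes the log2 ratios had a median of 0.17, with 25th and 75th percentiles of -0.14 and 0.48. TPM keeps no record of sequencing depth, so no counting interval is given.

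The largest difference among the 10 genes was that of Notch1, at 1.79 TPM in the control library and 72.9 TPM in the co-culture library. Notch2, Dll1 and Nrarp also had higher values in co-culture, by less than 2-fold on the log2 ratio scale, and Hes1 had a lower value. The other 5 genes (Notch3, Notch4, Jag1, Jag2 and Hey1) were below 1 TPM in both libraries. Of the 5 detected members, each of which had at least 1 TPM in both libraries, 1 was at least 2-fold higher and none was 2-fold lower. Among all detected genes 4.95% were at least 2-fold higher and 2.14% at least 2-fold lower, so the count of members rests on Notch1. Those shares stood for 557 higher and 241 lower genes, which became 406 and 293 after centring on the median ratio of abundant genes and 345 and 354 with a TMM factor. These scalings lowered the log2 ratios of abundant genes by 0.12 and 0.19. The median log2 ratio of the 5 detected members was 0.62, against 0.17 over all detected genes.

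**Figure D1:**
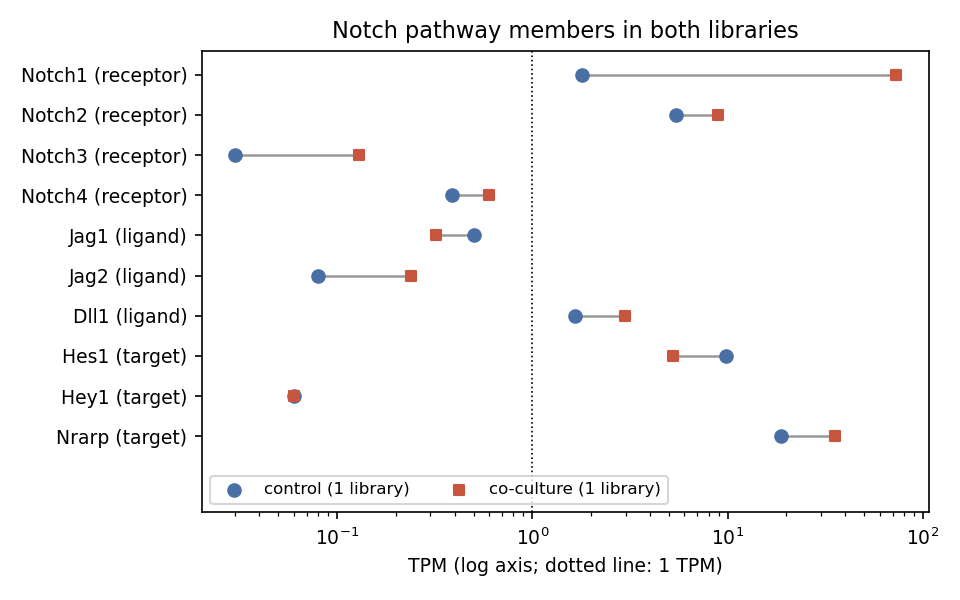
TPM of the 10 Notch pathway members in the control library (circles) and the co-culture library (squares) on a log axis, 1 library per group and no error bars. Notch1 runs from 1.79 to 72.9 TPM, Hes1 and Jag1 are lower in co-culture, and Notch3, Notch4, Jag1, Jag2 and Hey1 stay below 1 TPM in both libraries.

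Notch1 (ENSMUSG00000026923) is annotated on the minus strand of chromosome 2 of GRCm38 from 26457903 to 26516663. Its value was 40.7 times higher in co-culture without a pseudocount, and its log2 ratio was 4.73. In the control it was the second most abundant receptor, behind Notch2, and in co-culture it was the most abundant of the 10 genes. The ratio of Notch1 to Notch2 was 0.330 in the control and 8.19 in co-culture. Notch1 made up 23.4% of the summed TPM of the 4 receptors in the control and 88.3% in co-culture, while the sum itself was 7.64 TPM and 82.5 TPM.

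By log2 ratio Notch1 ranked 12 of the 11258 detected genes and 2 among the 10367 detected protein-coding genes. Of the 11 genes above it 7 were listed at 0 in the control, and 10 were not protein-coding: 4 small nuclear RNA genes, 2 processed pseudogenes, 1 small nucleolar RNA gene and 3 genes of other noncoding or undetermined classes. The remaining gene was Garem1, an adaptor of growth factor receptor signalling, at 0.42 TPM in control cells against 53.1 TPM after co-culture (log2 ratio 5.25). Garem1 was also the protein-coding gene with the log2 ratio nearest to that of Notch1, 0.53 above it, followed by Gm42906 at 4.18 and the histone gene Hist1h2ah at 3.86, both listed at 0 in the control. This likeness rests on 2 libraries, so many unrelated patterns cannot be told apart by it. Control levels from 1 to 3 TPM were found for 1230 detected protein-coding genes, and detection also uses the co-culture value. Their median in co-culture was 2.70 TPM. Of these 12 reached 10 TPM in co-culture, and the highest after Notch1 was the histone gene Hist1h4n, at 2.17 TPM in control cells against 20.4 TPM after co-culture.

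**Figure D2:**
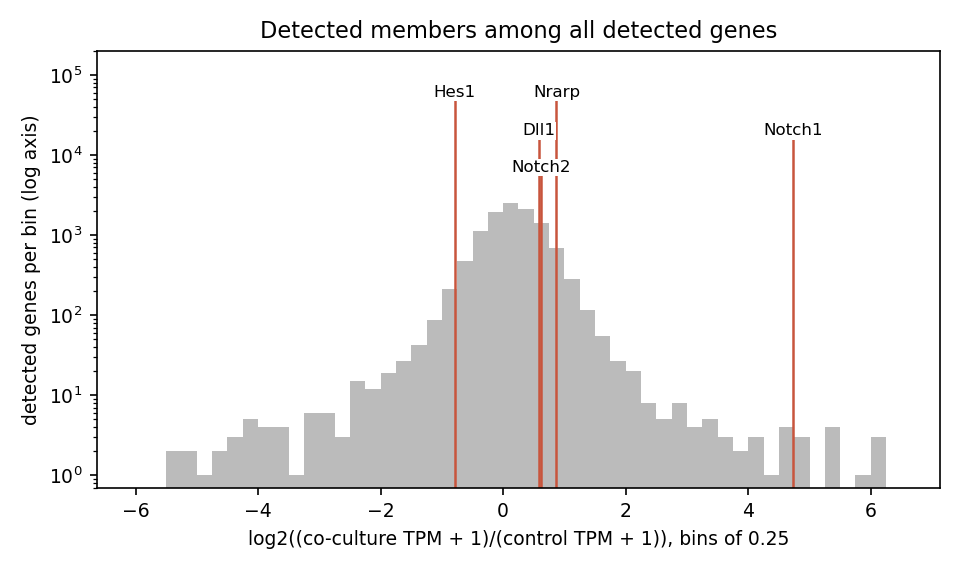
Number of detected genes (log axis) per bin of log2 ratio of co-culture to control TPM, with lines at the 5 detected Notch members. Hes1 at -0.79, Dll1 at 0.58, Notch2 at 0.62 and Nrarp at 0.87 are less than 2-fold different. They lie outside the 25th and 75th percentiles of all detected genes (-0.14 and 0.48). Notch1 at 4.73 lies in the far upper tail.

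The genes beside Notch1 did not share its difference. Of 16 protein-coding genes within 300 kb of its span 11 were detected, and none of them was 2-fold higher or lower. Among all detected protein-coding genes 4.28% were at least 2-fold higher and 1.5% at least 2-fold lower, so none of 11 is near those shares. The log2 ratios of the 11 neighbours ran from -0.30 for Snapc4 to 0.76 for Fam69b, with a median of 0.15. Sec16a, which organises sites of export from the endoplasmic reticulum and is the nearest detected neighbour on one side, had 19.4 TPM in control cells against 20.1 TPM after co-culture. Egfl7, the nearest on the other side, encodes a secreted protein of the vessel wall that can bind Notch receptors, and it had 49.6 TPM and 51.1 TPM. The noncoding gene 0610009E02Rik overlaps the 3′ part of Notch1 by 1488 bases on the opposite strand and had 0.79 TPM and 1.92 TPM. Gm13568, which overlaps it by 414 bases, was listed at 0 and had 0.97 TPM in co-culture. Whether counting used the strand is not stated, so reads of these genes and of Notch1 cannot be told apart in the shared bases.

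**Figure D3:**
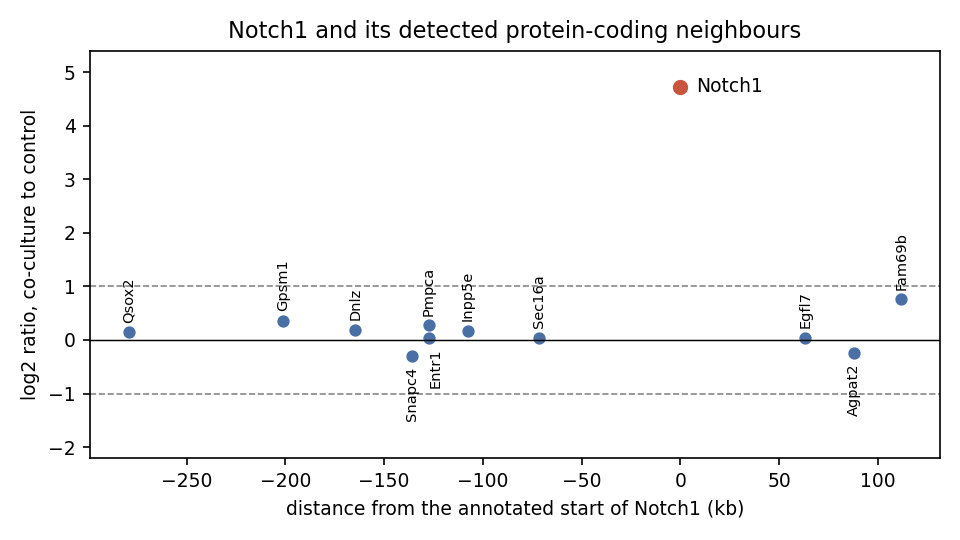
Log2 ratio of co-culture to control TPM for Notch1 and its 11 detected protein-coding neighbours against the distance of each annotated start from that of Notch1 in kb, with 1 library per group. Dashed lines mark 2-fold. The neighbours lie between -0.30 and 0.76, and Notch1 is at 4.73.

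GENCODE M21 lists 11 transcripts of Notch1, from 157 to 9488 bases long, of which 2 are protein-coding. The longest has 34 exons and is the full receptor. Where a gene's TPM is the sum over its transcripts, the same number of reads gives a larger TPM on a short transcript than on a long one. Values of single transcripts were not used here, so how the 72.9 TPM of Notch1 divide among the 11 transcripts was not tested. Notch2 has 2 transcripts and Nrarp has 1, of 2582 bases in a single exon.

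Notch2 (ENSMUSG00000027878) lies on the plus strand of chromosome 3 from 98013527 to 98150361 and was the main receptor of the control library. It had 5.43 TPM in control cells against 8.90 TPM after co-culture, 1.64 times higher, with a log2 ratio of 0.62 that lay above the 75th percentile of all detected genes. Its share of the summed receptor TPM was 71.1% in the control and 10.8% in co-culture. Of the other receptors, Notch4 (chromosome 17 from 34564268 to 34588503), known from endothelial cells and as a site of viral insertion in mouse mammary tumours, had 0.39 TPM in control cells against 0.60 TPM after co-culture. Notch3 (chromosome 17 from 32120820 to 32166852), a receptor of vascular smooth muscle, had 0.03 TPM and 0.13 TPM. The Notch3 values are a few units of the second decimal to which the table is rounded, so their ratio is not interpretable. Neither gene reached the detection level.

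All 3 ligands had low values. Dll1 (chromosome 17 from 15367354 to 15376872), a Delta ligand, had 1.66 TPM in control cells against 2.98 TPM after co-culture (log2 ratio 0.58) and was the only one of them detected. Jag1 (chromosome 2 from 137081456 to 137116644), a Jagged ligand and itself a target of Notch signalling in several tissues, had 0.50 TPM and 0.32 TPM. Jag2 (chromosome 12 from 112907819 to 112929776) had 0.08 TPM and 0.24 TPM. The summed TPM of the 3 ligands was 2.24 in the control and 3.54 in co-culture, of which Dll1 made up 74.1% and 84.2%. Ligand totals were thus below the receptor totals in both libraries, and the macrophages' own ligands were not measured.

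The 2 detected targets had differences of opposite sign. Nrarp (ENSMUSG00000078202; plus strand of chromosome 2 from 25180758 to 25183339), a small ankyrin-repeat protein that Notch induces and that limits Notch signalling, had 18.9 TPM in control cells against 35.3 TPM after co-culture. It was 1.87 times higher, with a log2 ratio of 0.87 that ranked 854 of the detected genes. Hes1 (ENSMUSG00000022528; plus strand of chromosome 16 from 30064384 to 30067796), a basic helix-loop-helix repressor, had 9.86 TPM in control cells against 5.27 TPM after co-culture. It was 1.87 times lower, with a log2 ratio of -0.79, the 403rd lowest of the detected genes. The ratio of Nrarp to Hes1 was 1.91 in the control and 6.69 in co-culture. Hey1 (chromosome 3 from 8663359 to 8667256), a related repressor, had 0.06 TPM in both libraries. The signs of all 5 detected members stayed the same under each of the 3 other scalings of the libraries.

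The annotated starts of Nrarp and Notch1 lie 1336 kb apart on chromosome 2, and the genes around Nrarp were examined in the same way. Of 23 detected protein-coding genes within 300 kb of Nrarp 2 were at least 2-fold higher and 1 was 2-fold lower, with a median log2 ratio of 0.16. Among all detected protein-coding genes 4.28% were 2-fold higher and 1.5% were 2-fold lower. Tor4a, which starts 16.1 kb from the start of Nrarp and encodes a torsin-family ATPase, had 17.0 TPM in control cells against 45.9 TPM after co-culture. Tubb4b, a beta-tubulin gene, had 282.7 TPM and 599.9 TPM. The gene 2-fold lower was Paxx, of DNA end joining, at 27.1 TPM and 11.2 TPM (log2 ratio -1.21). The antisense gene Gm38287 overlaps 2559 bases of Nrarp and was listed at 0 in both libraries.

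The promoters of Notch1, Notch2 and Nrarp are shown because these were the 3 members with the highest log2 ratios. Each window holds 250 bases before and 50 after a RefSeq start site (RefSeq, build GRCm38.p6), written 5′ to 3′ on the gene's own strand, and capitals mark the GC box GGGCGG or its reverse complement CCGCCC, a site of the SP family of activators. The windows are chr2:26503773-26504072 (minus strand) for Notch1, chr3:98013288-98013587 (plus strand) for Notch2 and chr2:25180508-25180807 (plus strand) for Nrarp. The Notch1 start site used by RefSeq lies 12.8 kb inside the end of the GENCODE span, which begins farther upstream.
Notch1: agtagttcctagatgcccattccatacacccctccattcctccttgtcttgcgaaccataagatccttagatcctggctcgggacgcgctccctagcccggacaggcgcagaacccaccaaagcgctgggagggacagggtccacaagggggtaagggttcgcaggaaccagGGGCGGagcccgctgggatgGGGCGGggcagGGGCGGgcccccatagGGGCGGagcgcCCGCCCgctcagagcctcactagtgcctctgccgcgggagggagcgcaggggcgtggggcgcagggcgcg
Notch2: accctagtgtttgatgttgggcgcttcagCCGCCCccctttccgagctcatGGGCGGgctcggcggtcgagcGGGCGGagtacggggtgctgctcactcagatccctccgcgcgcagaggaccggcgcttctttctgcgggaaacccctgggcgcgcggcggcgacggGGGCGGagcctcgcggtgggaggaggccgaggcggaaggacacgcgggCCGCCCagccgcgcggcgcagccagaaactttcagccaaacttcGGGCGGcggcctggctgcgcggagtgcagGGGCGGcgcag
Nrarp: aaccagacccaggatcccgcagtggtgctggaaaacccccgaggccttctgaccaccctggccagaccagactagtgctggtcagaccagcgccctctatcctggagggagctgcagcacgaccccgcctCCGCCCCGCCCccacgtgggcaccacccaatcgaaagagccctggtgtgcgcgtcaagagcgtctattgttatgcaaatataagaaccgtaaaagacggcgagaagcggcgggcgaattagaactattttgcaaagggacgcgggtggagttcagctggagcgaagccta

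The table of promoters held 9 windows for 8 of the 10 members, with 2 for Dll1 and none for Hes1 or Hey1. The GC box was found 5 times in the Notch1 window, 7 times in that of Notch2 and 2 times, overlapping each other, in that of Nrarp. It was present in 5 of the 9 member windows, the others being those of Jag2 and Notch3, and in 35.7% of all 32851 windows. GC content was 68.3% for Notch1, 73.0% for Notch2 and 60.0% for Nrarp, against a median of 52.7% over all windows. The core of the RBPJ site, TGGGAA or TTCCCA, was in none of the 9 member windows and in 25.6% of all windows. The N-box CACNAG or CTNGTG, a site of HES repressors, was in 5 of the 9 member windows and in 42.5% of all windows, and the E-box CACGTG was in 1 (Nrarp) and in 7.15% of all windows. These are matches of letters in short windows and say nothing of binding.

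The remaining machinery of the pathway differed far less than Notch1. Of 61 other pathway genes 45 were detected, 1 was at least 2-fold higher and none was 2-fold lower, where all detected genes gave 4.95% and 2.14%. Their median log2 ratio was 0.38, against 0.17 over all detected genes, and 36 of the 45 had a ratio above 0, as did 64.5% of all detected genes. Once centred on the median ratio 29 of the 45 were above 0, with a median of 0.28 against 0.06 over all detected genes. Under the TMM factor 28 were above 0, with a median of 0.21 against -0.007. The share of all detected genes above 0 was not computed at those scalings. Fbxw7, the ubiquitin ligase subunit that targets the Notch intracellular domain for destruction, was the gene past the threshold, at 1.81 TPM in control cells against 4.69 TPM after co-culture (log2 ratio 1.02). Its ratio fell short of 2-fold under the TMM factor (0.86), a pseudocount of 5 (0.51) and centring on the median ratio.

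Ligands and receptor relatives outside the 10 members were mostly low. Dll4, the Delta ligand of sprouting vessels, had 0.84 TPM in control cells against 2.25 TPM after co-culture (log2 ratio 0.82). Dlk2, a Delta-like protein without the receptor-binding domain of the canonical ligands, was more abundant than the canonical ligands in both libraries, at 86.9 TPM and 64.7 TPM (log2 ratio -0.42). Dlk1 had 0.34 TPM and 0.16 TPM, Dner had 0.11 TPM in the control and was listed at 0 in co-culture, and Dll3 was listed at 0 in both.

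Genes that mature and glycosylate the receptors were present in both libraries. Furin, the protease that cuts the receptor on its way to the surface, had 20.1 TPM in control cells against 32.2 TPM after co-culture (log2 ratio 0.65). Pofut1, which adds O-linked fucose to the receptor's EGF repeats, had 14.7 TPM and 21.9 TPM (0.54). Of the Fringe enzymes that extend this fucose, Lfng had 6.49 TPM and 6.42 TPM, Rfng had 19.9 TPM and 17.2 TPM, and Mfng was listed at 0 in both.

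Receptor cleavage genes were present in both libraries. Adam10, the main protease of the first cut, had 12.0 TPM in control cells against 23.8 TPM after co-culture (log2 ratio 0.93). Adam17, which can make the same cut, had 14.1 TPM and 25.7 TPM (0.82). Among genes of gamma-secretase, which makes the second cut, Psen2 had 14.0 TPM in control cells against 14.2 TPM after co-culture. Ncstn, Aph1a and Psenen had 54.4, 82.8 and 74.8 TPM in the control and 58.2, 90.6 and 73.4 TPM in co-culture. Aph1b had 1.79 TPM and 2.96 TPM (0.51), and Aph1c was listed at 0 in both.

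Genes of ligand and receptor trafficking pointed both ways. Mib1 and Mib2 encode ubiquitin ligases that drive ligand endocytosis in the signal-sending cell. Mib1 had 8.37 TPM in control cells against 14.2 TPM after co-culture (log2 ratio 0.70), whereas Mib2 had 12.4 TPM and 7.50 TPM (-0.66). Numb, an adaptor that antagonises Notch, had 10.9 TPM and 12.9 TPM (0.23). The Deltex gene Dtx3 had a log2 ratio of -0.56, and Dtx2 one of 0.31.

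All 15 genes of the nuclear complex and its corepressors were detected, and all had log2 ratios above 0, as did 64.5% of all detected genes, with a median of 0.49. Centring on the median ratio left 12 of the 15 above 0 (median 0.37), as did the TMM factor (median 0.30), and Snw1, Ctbp1 and Kat2a were below 0. The median over all detected genes was 0.17 before these scalings, 0.06 with the centring and -0.007 with the TMM factor. Rbpj, the DNA-binding partner of cleaved Notch, had 44.9 TPM in control cells against 64.5 TPM after co-culture (log2 ratio 0.51). The Mastermind coactivators Maml1, Maml2 and Maml3 had ratios of 0.45, 0.57 and 0.38. The largest ratios were those of Spen, a corepressor that binds RBPJ (2.36 TPM and 5.35 TPM; 0.92), and of Kat2b, a histone acetyltransferase (3.30 TPM and 6.89 TPM; 0.88). None of the 15 reached 2-fold with the pseudocount of 1, and Spen (1.15) and Kat2b (1.04) did so with a pseudocount of 0.1.

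A further list of 14 genes held members of the HES and HEY families and genes known as Notch targets in some tissues. Which of the family members are Notch targets in these cells was not tested. Of the 14 genes 6 were listed at 0 in both libraries, namely Hes2, Hes3, Hes5, Hey2, Heyl and Snai2, and 5 were detected. Hes6, an inhibitor of Hes1, had 7.07 TPM in control cells against 8.94 TPM after co-culture (log2 ratio 0.30). Ccnd1, the gene of cyclin D1, had 362.0 TPM and 561.2 TPM (0.63), and the survival gene Bcl2 had 1.16 TPM and 2.52 TPM (0.70). Myc, which Notch activates in T cells, had 188.8 TPM and 102.8 TPM (-0.87), the same sign as Hes1. With the TMM factor the ratio of Myc was -1.06.

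**Figure D4:**
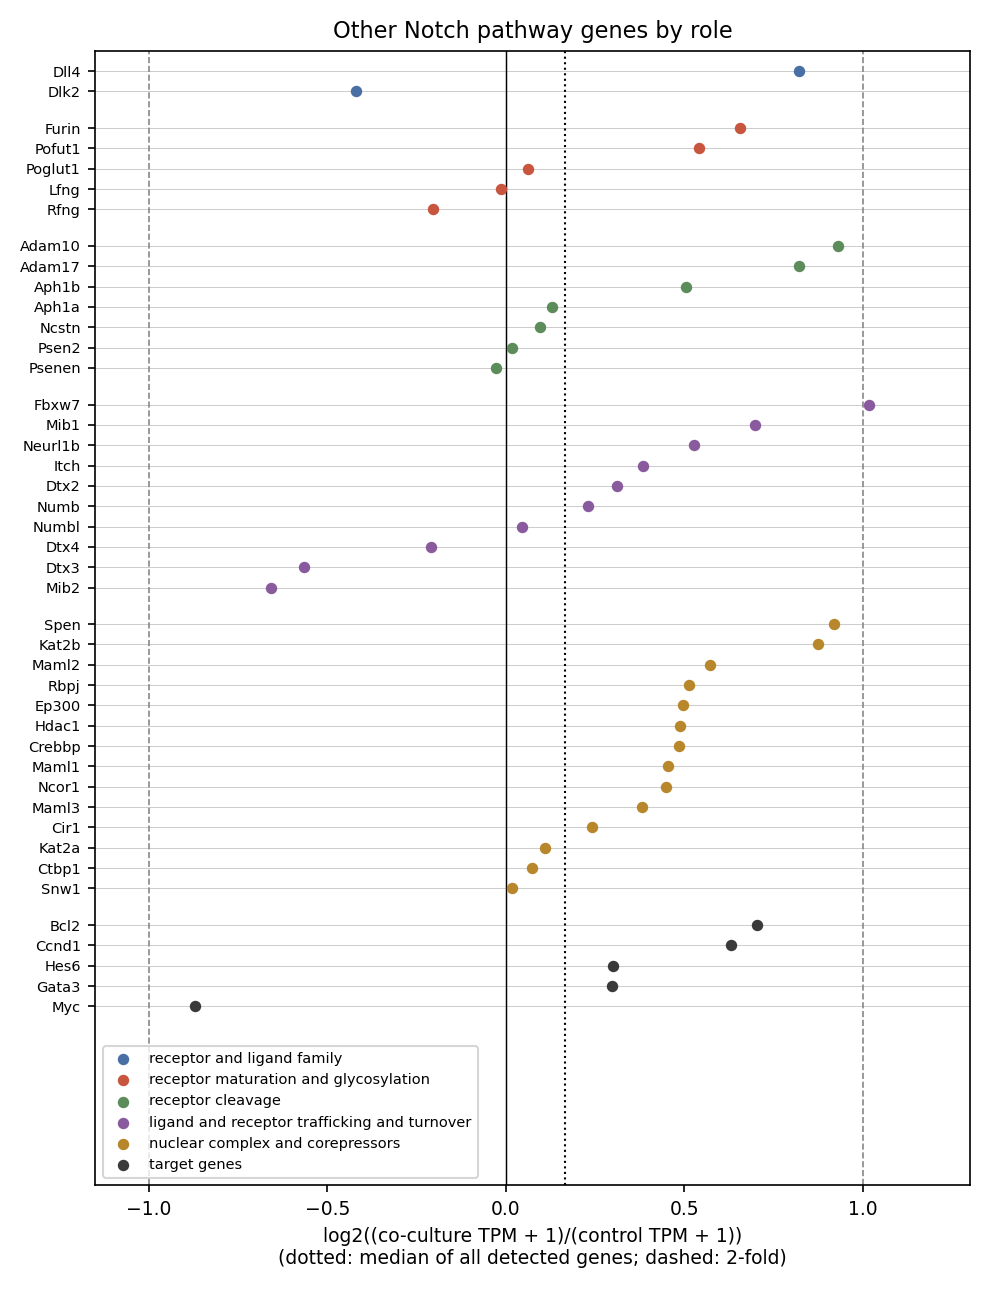
Log2 ratio of co-culture to control TPM of 43 of the 45 detected Notch pathway genes outside the 10 members, 1 row per gene and 1 colour per role, 1 library per group. The dotted line is the median of all detected genes (0.17) and the dashed lines mark 2-fold, which Fbxw7 at 1.02 passes. Genes of the nuclear complex lie above 0 at this scaling, and Myc, Mib2 and Dtx3 are the lowest of the genes below 0.

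Markers of other cells that use Notch were set beside these values. Of 19 macrophage markers 1 was detected, Cd68, at 57.7 TPM in control cells against 27.8 TPM after co-culture, and the list summed to 58.05 TPM and 28.6 TPM. Cd68 made up most of both sums. The macrophage genes Adgre1, Ptprc, Tyrobp, Fcer1g, Itgam and C1qa were listed at 0 in both libraries, among 11 such markers. Aif1, C1qb and Lyz2 were listed at 0 in the control and had 0.27, 0.06 and 0.04 TPM in co-culture. Mertk had 0.26 TPM in control cells against 0.32 TPM after co-culture, and Mrc1 had 0.05 TPM and 0.08 TPM. Csf1r had 0.03 TPM and 0.01 TPM, and Cx3cr1 had 0.01 TPM in both. Values this near the rounding step are not interpretable as ratios. Of 11 endothelial markers only Egfl7 was detected, while Pecam1, Kdr and Tek were listed at 0 in both, and the list summed to 49.8 TPM and 51.4 TPM. The fibroblast list had 1 of 9 detected, Pdgfra, at 5.60 TPM and 10.2 TPM (list sums 6.79 TPM and 11.4 TPM), and none of 9 lymphocyte markers was detected (sums 0.07 TPM and 0.23 TPM). Of 12 epithelial markers 6 were detected, with Krt8 at 548.5 TPM and 630.4 TPM and Krt18 at 439.4 TPM and 484.2 TPM, and Epcam, Krt5 and Cldn7 were listed at 0 in both. The median log2 ratio of the 6 was 0.54, and the list summed to 1017 TPM and 1166 TPM. Krt19 was its only member 2-fold higher, at 0.18 TPM and 2.64 TPM (log2 ratio 1.63), and it passed detection only through its co-culture value. Among all detected genes 4.95% were at least 2-fold higher. The log2 ratio was 0.78 for Tjp1, 0.72 for Cldn3 and 0.36 for Ocln. That median leaves out the undetected markers, among them Cdh1, at 0.04 TPM in control cells against 0.01 TPM after co-culture. Krt14 (0.23 TPM and 0.32 TPM) and Cldn4 (0.03 TPM and 0.12 TPM) were also below detection. The part of these markers in the Notch values was not tested. In bulk RNA a difference in the share of cells that express a gene and a difference in RNA per cell cannot be told apart.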

How the data were processed

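RNA sequencing libraries of 4T1 cells, 1 control and 1 co-culture, were grouped by their treatment labels. The authors deposited 1 table of TPM values rounded to 2 decimals. HISAT2 2.1.0, RSEM 1.2.31 and the build GRCm38.p5 appear in the submitters' processing notes, without roles. The annotation release, the strandedness and the depth are not stated. The table held 51912 Ensembl rows and 884 assembled loci (MSTRG identifiers) without positions, which were left out (4.38% of TPM in the control library, 6.47% in the other). Whether any of them overlaps a member was not tested. Symbols, positions, biotypes and transcripts came from GENCODE M21 (GRCm38), which named 51633 of the Ensembl rows, and promoters from RefSeq (GRCm38.p6).

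Log2 ratios used a pseudocount of 1, detection a mean of at least 1 TPM, and calls a log2 ratio of 1 or -1. No test was made, since each group had 1 library. The members and lists were chosen with earlier results of these data known. The genes named were all members, other pathway genes past 2-fold or with the 3 largest absolute ratios of their role, gamma-secretase genes, Rbpj, the 3 protein-coding genes nearest to the most different member, overlapping genes and the leading cell type markers. Some genes that this rule selects are counted but not reported here. Others, the neighbouring genes included, were chosen after their values were seen. Alternatives were pseudocounts of 0.1 and 5, other TPM minimums, a log2 threshold of 2, and 3 scalings: the median ratio of genes with at least 10 TPM, an unweighted TMM factor over detected genes (trims of 30% and 5%), and totals without mitochondrial and the 20 most abundant genes. The calling step was tested on simulated data with changes well past 2-fold in genes above a minimum control level. Low control levels and changes near 2-fold were thus not covered. The median ratio and TMM factors were tested on simulated data too, and the scaling without mitochondrial and abundant genes was not. Computations used Python 3.11.15, pandas 2.3.3 and numpy 2.4.6.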

Additional observations from a re-analysis of the deposited data

How the results depend on the processing

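With 1 library per group no replicate could be left out, and depth limits could not be computed from TPM. No paired analysis was possible because each group has 1 library. Notch1 was the member past the threshold, and no member was 2-fold lower, under each of the 8 other settings named above and among protein-coding genes only, the latter chosen after seeing the data. The log2 ratio of Notch1 ran from 3.52 (pseudocount of 5) to 5.27 (pseudocount of 0.1). The median of the detected members was 0.62, against 0.17 over all detected genes. Pseudocounts of 0.1 and 5 gave 0.81 and 0.41, against 0.18 and 0.12 over all detected genes. Once centred on the median ratio the member median was 0.52 against 0.06, and under the TMM factor it was 0.45 against -0.007. Leaving out mitochondrial and abundant genes gave 0.62 against 0.16. Without a filter the median over all 10 members was 0.20, against 0 over all genes. The 2 members with at least 10 TPM had a median of 2.80, against 0.11 over all genes at that level. Without Notch1, an alternative chosen after seeing the data, the member median was 0.60, against 0.17. The count of other pathway genes 2-fold higher, 1, was 0 after median ratio centring, with the TMM factor, with a pseudocount of 5, at 10 TPM and at a log2 threshold of 2. It was 5 with a pseudocount of 0.1 (Fbxw7, Dll4, Spen, Bcl2 and Kat2b). The count 2-fold lower, 0, was 1 (Myc) with the TMM factor. Over all genes 557 higher and 241 lower became 886 and 325 with a pseudocount of 0.1, 199 and 129 with 5, 345 and 354 with the TMM factor, 244 and 120 at 10 TPM, and 75 and 66 at a log2 threshold of 2. The share of higher genes among those called was 69.8%, and 49.4% with the TMM factor, 58.1% with the centring and 53.2% at a threshold of 2. Of 55 pathway genes, members included, 8 changed sign under a scaling, none of them a member.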

Other observations

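Genes that act around the Notch pathway were also read from lists chosen after seeing the data. Among corepressors and partners of HES proteins 9 of 11 genes were detected, 6 with log2 ratios above 0 and 3 below. Their median was 0.14, against 0.17 over all detected genes. In this list 1 gene was at least 2-fold higher and none 2-fold lower, where all detected genes gave 4.95% and 2.14%. Tle3, a Groucho-family corepressor that HES proteins recruit, had 7.32 TPM in control cells against 16.5 TPM after co-culture, giving a log2 ratio of 1.08 (0.97 once centred on the median ratio, 0.90 under the TMM factor, 0.81 for a pseudocount of 5). Its relatives differed less, with Tle1 at 9.14 TPM and 8.92 TPM and Tle2 at 5.13 TPM and 5.43 TPM, and Tle4 was listed at 0 in both libraries. Id3, a helix-loop-helix inhibitor, had 173.5 TPM in control cells against 94.3 TPM after co-culture, whereas Id1 had 125.1 TPM and 167.7 TPM.

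Of 6 further enzymes that add sugars to EGF repeats 5 were detected, 4 with log2 ratios above 0 and 1 below, and none was 2-fold different. Among all detected genes 64.5% were above 0, 4.95% were at least 2-fold higher and 2.14% at least 2-fold lower. Counts over 5 genes cannot be told from those shares. The detected enzymes included Gxylt1 (2.17 TPM in control cells against 4.23 TPM after co-culture), Xxylt1 (10.8 TPM and 17.7 TPM) and Eogt (3.85 TPM and 6.67 TPM), with log2 ratios of 0.72, 0.66 and 0.66. Kdelc2 had a ratio of 0.30, and Kdelc1 had 13.6 TPM and 13.2 TPM (-0.04). In the list of endocytosis and sorting genes all 11 were detected and none was 2-fold different, near the same shares of all detected genes. The list's median log2 ratio was 0.19, close to the 0.17 of all detected genes. Its largest ratios were those of the deubiquitinase gene Usp12 (4.88 TPM and 9.71 TPM; 0.87) and the kinase gene Aak1 (4.67 TPM and 8.89 TPM; 0.80). Of 6 other genes whose products can bind Notch receptors none was detected, and Mfap2, Mfap5 and Cntn6 were listed at 0 in both libraries.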
